A study of Mus musculus with 4 samples.

Results

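The genes described here are Cxcl10 and other interferon-induced genes in the globus pallidus, a nucleus of the basal ganglia built mainly of GABAergic neurons. The list names 35 genes, of which 34 had spots with that gene as their only symbol, out of 19087 such genes on the array. Ifi44 was not analysed here. The list was drawn up around Cxcl10, whose mean ratio between treatments was the highest among genes with the same sign on all 4 arrays. The treatment ratios below are therefore given as a description, without tests, and the counts made from them support nothing.

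RNA came from male C57BL6 mice that went through conditioned place preference, a test in which an animal learns to link a compartment with a drug. The cocaine mice were given 15 mg/kg on days 2, 3 and 4 and had a low preference score, and the control mice were given saline on the same days. Ages are not in the labels. Every cocaine mouse used here had a low score, so the drug and the score cannot be told apart. Each of 4 two-colour arrays of 60-mer probes compared a cocaine mouse with a saline mouse, each under its own animal code, and cocaine was labelled with Cy5 on arrays 1 and 3 and with Cy3 on the others. The 4 arrays were taken as biological replicates, and their number limits the precision.

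The deposited ratios carried a strong dye bias. Arrays of the same dye orientation correlated at 0.90 and 0.87 (Pearson, 45018 spots), while arrays of opposite orientation correlated between -0.96 and -0.83. This is the pattern of columns already turned to a common treatment direction. Cocaine over saline is the likely direction, from the order of treatments in the study's design text, but the values do not settle it. "Higher" below means a ratio above 0, so more in cocaine if that reading holds and more in saline if it does not. Over the whole array 0 of 30452 features passed the treatment test (limma, adjusted p under 0.05, 0% called), and 529 (1.74%) had an unadjusted p under 0.05. No gene named below passed.

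Interferons are cytokines that put cells into an antiviral state. Type I interferons act through the kinases JAK1 and TYK2 on a complex that holds STAT2 and IRF9 and binds the interferon-stimulated response element (ISRE) in promoters. Interferon gamma acts on promoters through the gamma-activated site (GAS). In the brain, microglia, astrocytes and vessel cells respond to both, and CXCL10 made by them attracts T cells through the receptor CXCR3.

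RefSeq promoter windows (GRCm38.p6, 250 bases before to 50 after the gene start) were found for 27 of the 35 listed genes, 31 windows in all. The core of the ISRE, GAAA followed by any 2 bases and GAAA again, was searched on both strands, and the GAS letters, TTC followed by any 3 bases and GAA, read the same on both. ISRE letters were in 17 of the 31 member windows (54.8%), against 3.44% of all 32851 windows in the table. GAS letters were in 6 member windows (19.4%), against 8.3% of all. A match describes letters and not a bound site. The window of Cxcl10 is shown because the list is built on this gene, and the windows of Oas1a, Igtp and Bst2 because they hold both sets of letters. Ifitm3 also holds both and is not shown. Capitals mark the matches, and the sequences run 5′ to 3′ on the gene's strand.
Cxcl10: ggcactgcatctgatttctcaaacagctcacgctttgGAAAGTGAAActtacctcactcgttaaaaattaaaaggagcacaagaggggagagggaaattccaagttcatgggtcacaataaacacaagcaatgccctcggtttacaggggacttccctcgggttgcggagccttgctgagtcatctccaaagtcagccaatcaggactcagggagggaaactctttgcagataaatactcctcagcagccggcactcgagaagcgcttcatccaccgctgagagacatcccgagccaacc
Oas1a: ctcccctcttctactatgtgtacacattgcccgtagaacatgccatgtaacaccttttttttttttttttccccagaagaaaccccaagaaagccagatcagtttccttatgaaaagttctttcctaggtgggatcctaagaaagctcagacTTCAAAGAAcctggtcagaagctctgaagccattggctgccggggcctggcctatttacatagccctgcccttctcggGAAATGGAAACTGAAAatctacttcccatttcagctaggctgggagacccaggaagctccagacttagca
Igtp: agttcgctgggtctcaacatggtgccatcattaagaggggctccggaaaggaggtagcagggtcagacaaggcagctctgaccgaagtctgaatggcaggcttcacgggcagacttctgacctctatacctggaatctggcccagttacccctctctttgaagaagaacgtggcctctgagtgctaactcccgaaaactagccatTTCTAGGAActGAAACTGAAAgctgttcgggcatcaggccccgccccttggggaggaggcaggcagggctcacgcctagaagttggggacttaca
Bst2: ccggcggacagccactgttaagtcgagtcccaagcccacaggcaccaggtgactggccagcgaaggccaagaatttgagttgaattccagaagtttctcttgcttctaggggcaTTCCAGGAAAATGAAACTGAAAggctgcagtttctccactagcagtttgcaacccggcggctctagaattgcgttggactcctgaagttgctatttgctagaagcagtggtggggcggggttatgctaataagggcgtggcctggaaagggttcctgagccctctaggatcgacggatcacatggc

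The windows lie at chr5:92348840-92349139 on the minus strand (Cxcl10), chr5:120907476-120907775 on the minus strand (Oas1a), chr11:58199306-58199605 on the plus strand (Igtp) and chr8:71537423-71537722 on the minus strand (Bst2). In Cxcl10 the ISRE letters start 213 bases before the gene start, in Igtp 34 bases before it. Oas1a and Bst2 each hold a pair of ISRE matches that share a GAAA, and in Bst2 the GAS letters overlap the ISRE letters too. The 17 measured members with ISRE letters had a median log2 ratio of 0.20. The 9 measured members with a window and no such letters had a median of 0.07. Both medians describe the treatment ratios that chose the list.

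Across the 34 measured members the median log2 ratio was 0.16, against -0.003 over all genes. The mean was above 0 for 29 members and below 0 for 5, and 48.0% of all genes had a mean above 0. The ratio was above 0 on 4 of 4 arrays for 18 members, against 8.0% of all genes, and below 0 on 4 of 4 arrays for 0 members, against 6.76%. The normalization pulls the means of the 2 dye orientations toward each other, which ties the values of a gene across arrays. The array where a gene is highest thus largely sets the array where it is lowest, so the latter is no separate observation. A difference on a single array is in part spread over the others. Bulk tissue was measured, so more cells of a type and more RNA per cell cannot be told apart.

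**Figure D1:**
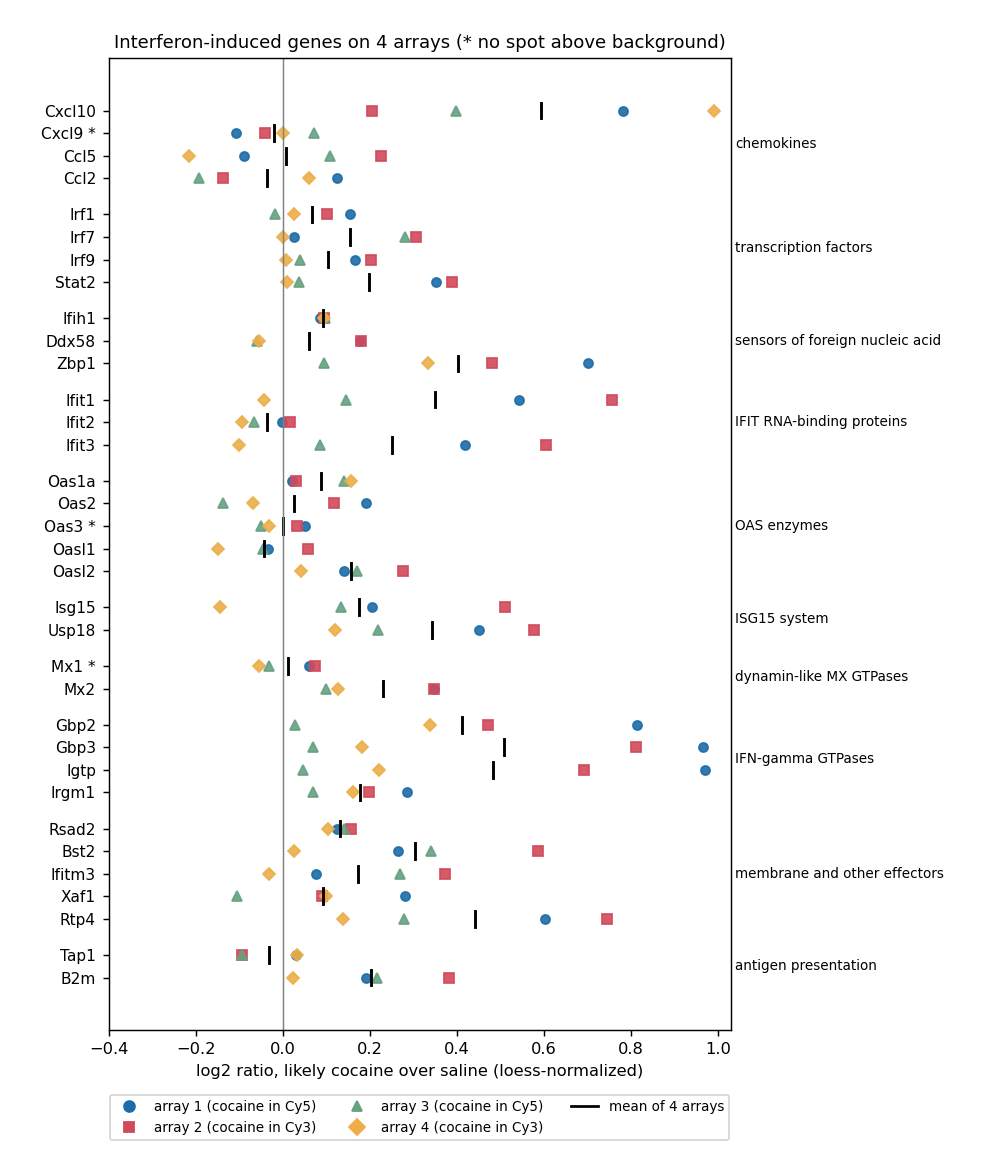
Log2 ratio (x axis) of each of the 34 measured members (rows) on arrays 1 to 4 (symbols) with the mean of the 4 arrays (black bar), grouped by role; an asterisk marks the 3 genes with no spot above background. Cxcl10 has the highest mean (0.59), and Gbp3 and Igtp reach 0.97 on array 1.

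Of the listed chemokines, which attract leukocytes, Cxcl10 is the gene on which the list was built. The deposited log2 ratios of the single Cxcl10 spot were 1.29, -0.23, 1.09 and 0.20 on arrays 1 to 4. After removal of the dye bias they were 0.78, 0.21, 0.40 and 0.99. All 4 values were above 0, with arrays 1 and 4 high and arrays 2 and 3 lower. The mean was 0.59 (SE 0.14, n = 4 arrays), or 1.51-fold, the second highest mean among all 19087 genes. The SD between arrays was 0.36. SEs here and below come from the limma fit, which draws each gene's variance toward that of all features.

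Cxcl9, which shares the receptor CXCR3 with CXCL10 and lies near Cxcl10 on chromosome 5, had no spot above background. Its ratios were -0.11, -0.04, 0.07 and 0.00 on arrays 1 to 4. Ccl5, which attracts T cells and monocytes, stood at -0.09, 0.22, 0.11 and -0.22, with its 2 spots on opposite sides of 0 (-0.03 and 0.04). Ccl2, which recruits monocytes through CCR2, stood at 0.12, -0.14, -0.19 and 0.06, a mean of -0.04 (SE 0.07). Its 10 replicate spots lay between -0.07 and -0.01, so the same transcript read 10 times gave nearly the same mean. None of these 3 chemokines had a mean above 0.01. The distance to Cxcl10 follows from how that gene was chosen.

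The transcription factors of the pathway all had means above 0. Stat2, a subunit of the type I complex, stood at 0.35, 0.39, 0.04 and 0.01 on arrays 1 to 4, with a mean of 0.20 (SE 0.09). Irf7, which amplifies type I interferon production, stood at 0.03, 0.31, 0.28 and 0.00, with a mean of 0.15 (SE 0.08). Irf9, the DNA-binding subunit of the complex, had a mean of 0.10 (SE 0.06). Its spot above background gave 0.19 and its dim spot 0.02. Irf1, an early target of interferon gamma, had a mean of 0.07 (SE 0.05) over 3 spots that ranged from -0.02 to 0.20. Stat2 and Irf7 thus shared array 2 as the highest, but Stat2 was also high on array 1 and Irf7 on array 3.

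Among the sensors of foreign nucleic acid, Zbp1 had the highest ratio. Zbp1, a receptor for Z-form nucleic acid that can start necroptosis, stood at 0.70, 0.48, 0.10 and 0.33 on arrays 1 to 4, with a mean of 0.40 (SE 0.11) or 1.32-fold. All 4 arrays were above 0, and array 3 was the lowest. Ifih1, known as MDA5, which detects long double-stranded RNA, had a mean of 0.09 (SE 0.05). The same gene read by its spot above background alone gave 0.16. Ddx58, known as RIG-I, which detects RNA ends with a triphosphate, had a mean of 0.06 (SE 0.07) over 3 spots. Its only spot above background stood at 0.47, 0.56, -0.09 and -0.16, so arrays 1 and 2 were high and the others below 0.

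The IFIT proteins bind viral RNA and block its translation, and the 3 genes measured here lie in 1 cluster on chromosome 19. Ifit1 stood at 0.54, 0.76, 0.14 and -0.04 on arrays 1 to 4, with a mean of 0.35 (SE 0.15). Ifit3 stood at 0.42, 0.60, 0.09 and -0.10, with a mean of 0.25 (SE 0.13). In both, arrays 1 and 2 were high and array 4 was below 0. In the fit without array 2, which gives array 4 the most weight, their means were 0.16 and 0.10. Ifit2 did not share this pattern. Its values were -0.0009, 0.02, -0.07 and -0.09, and both of its spots, at -0.04 and -0.03, were above background.

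OAS enzymes make short adenylate chains that activate an RNA-degrading nuclease, and the gene means of this group were 0.16 or lower. Oasl2, a related protein, had a mean of 0.16 (SE 0.06). Its spot above background stood at 0.32, 0.59, 0.28 and 0.02, with a mean of 0.31. Oas1a had a mean of 0.09 (SE 0.05), Oas2 of 0.03 (SE 0.07) and Oasl1 of -0.04 (SE 0.06). Oas3 had no spot above background and a mean of 0.0006. Oas1a has close copies in a gene cluster on chromosome 5, so its probe may read more than 1 transcript.

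The ISG15 system tags proteins with a ubiquitin-like peptide and removes it. Usp18, the protease that removes the tag and dampens receptor signalling, stood at 0.45, 0.58, 0.22 and 0.12, with a mean of 0.34 (SE 0.09) or 1.27-fold. Isg15, the tag itself, stood at 0.21, 0.51, 0.13 and -0.14, with a mean of 0.18 (SE 0.11). In the fit without array 2, which gives array 4 the most weight, its mean was 0.01. Array 2 was the highest and array 4 the lowest for both genes. Mx2, a dynamin-like antiviral GTPase, stood at 0.35, 0.35, 0.10 and 0.13, with a mean of 0.23 (SE 0.07). Mx1, a related gene, of which C57BL/6 mice carry a defective allele, had no spot above background and a mean of 0.01.

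The GTPases best known as targets of interferon gamma had the highest median among the role groups at 0.45, with all 4 members above 0 on 4 of 4 arrays. That rank was not kept in the fit without array 1, where array 3 counts as much as arrays 2 and 4 together. In this fit their median was 0.22, as were those of the ISG15 system and of the membrane and other effectors. Gbp3, a guanylate-binding protein, had deposited ratios of 2.38, -0.58, 1.74 and -1.54, which became 0.97, 0.81, 0.07 and 0.18 without the dye bias. Its mean was 0.51 (SE 0.18), or 1.42-fold. Igtp, an immunity-related GTPase that acts on vacuoles of intracellular parasites, stood at 0.97, 0.69, 0.05 and 0.22, with a mean of 0.48 (SE 0.17). Both genes were far above 0 on arrays 1 and 2 and close to it on array 3.

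Gbp2, in the same cluster on chromosome 3 as Gbp3, stood at 0.81, 0.47, 0.03 and 0.34, with a mean of 0.41 (SE 0.13). Irgm1, a regulator of the other immunity-related GTPases, had a mean of 0.18 (SE 0.06) over 3 spots. Its 2 spots above background gave 0.32 and 0.21 and the dim one 0.0003, so the gene mean understates the bright spots. In Gbp2, Gbp3, Igtp and Irgm1 array 1 was highest, array 2 next, then array 4, and array 3 lowest. This order was not confined to the role group. It was found in 9 members (26.5%), Zbp1 and Mx2 among them, against 9.24% of all genes. It is in part set by the normalization, since 94.5% of the genes highest on array 1 were lowest on array 3. Cxcl10, by contrast, was highest on array 4. Whether these profiles differ was not tested. The guanylate-binding and immunity-related GTPases belong to families of similar sequence, and how far each probe is specific was not checked here.

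**Figure D2:**
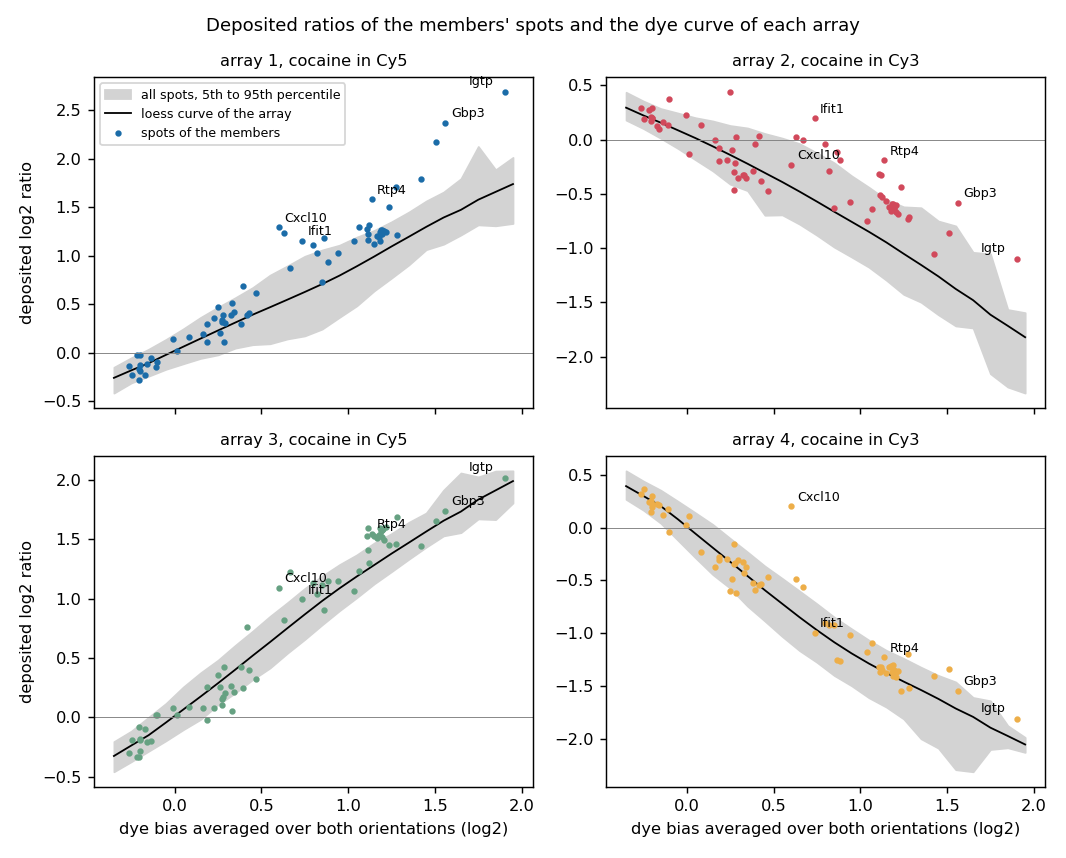
Deposited log2 ratio of each spot (y axis) against the dye bias averaged over both orientations (x axis), one panel per array; the grey band holds the central part of all spots, between the percentiles in the legend, the black line is the loess curve and the points are the members' spots. Gbp3 and Igtp lie above the band on arrays 1 and 2 and near the curve on array 3, and Cxcl10 lies far above the band on array 4.

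Membrane and other effectors had means above 0 in all 5 measured genes. Rtp4, a chaperone of receptors that is strongly induced by type I interferon, stood at 0.60, 0.75, 0.28 and 0.14, with a mean of 0.44 (SE 0.12) or 1.36-fold. Bst2, known as tetherin, which holds budding virus at the cell surface, stood at 0.27, 0.59, 0.34 and 0.03, with a mean of 0.30 (SE 0.10). Both were above 0 on 4 of 4 arrays and lowest on array 4.

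Rsad2, known as viperin, which makes a nucleotide that stops viral RNA synthesis, had a mean of 0.13 (SE 0.05) over 3 spots. Its only spot above background stood at 0.32, 0.49, 0.45 and 0.31, above 0 on 4 of 4 arrays, while its 2 dim spots gave -0.02 and 0.02. Ifitm3, which blocks virus entry from endosomes, had a mean of 0.17 (SE 0.08) with array 4 just below 0 at -0.03. Xaf1, a pro-apoptotic protein, had a mean of 0.09 (SE 0.08).

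Antigen presentation held the most often repeated measurement. B2m, the light chain of MHC class I, had 12 spots, of which 11 read the same transcript accession. The gene stood at 0.19, 0.38, 0.22 and 0.02 on arrays 1 to 4, with a mean of 0.20 (SE 0.07) or 1.15-fold. Within an array the SD over the 11 spots was 0.03 to 0.04, while the SD of the gene between arrays was 0.15. The spread between arrays was thus several times larger than the spread between replicate spots. Tap1, a subunit of the peptide transporter that loads MHC class I, stood at 0.03, -0.09, -0.09 and 0.03, with a mean of -0.03 (SE 0.05).

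The arrays differed in how far the members as a whole stood from other genes. The median of the members was 0.18, 0.22, 0.08 and 0.03 on arrays 1 to 4, while the median over all genes lay between -0.01 and 0.01 on each. On arrays 1 to 4, 30, 31, 24 and 23 of the 34 members were above 0, against 47.0%, 46.1%, 52.8% and 53.3% of all genes. Array 2 was the highest array for 18 members and array 1 for 11, against 24.8% and 19.7% of all genes. Arrays 3 and 4 were the highest for 2 and 3 members, against 24.8% and 30.7%. Of the 18 members with a mean above 0.15, 14 had a mean lower by over 1.5 times when 1 array was left out. This was so for 9 members without array 2, 5 without array 1, 2 without array 3 and 1 without array 4. Such fits weight the remaining arrays unequally. The counts were not made for other genes, so they do not set the members apart. By the medians, the members' ratios came mostly from arrays 1 and 2, and Cxcl10 was among the exceptions. That these 2 arrays carry opposite dye orientations is in part set by the normalization, so it shows no agreement between dyes.

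**Figure D3:**
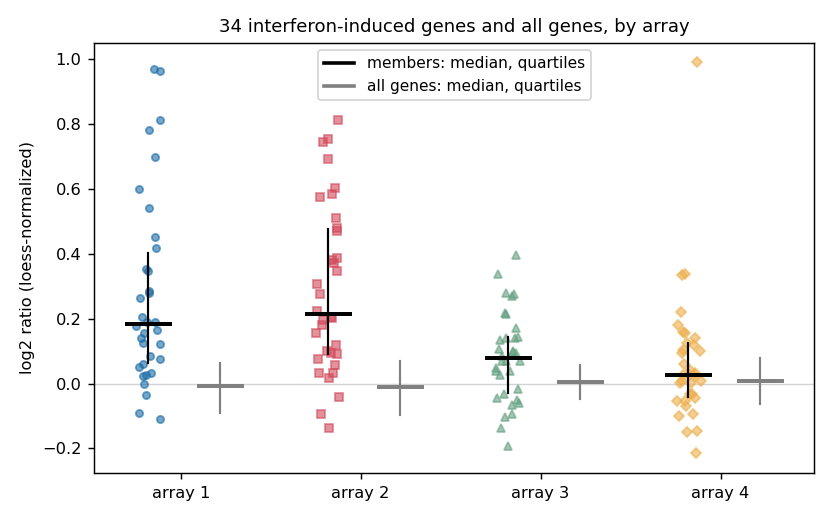
Log2 ratios of the 34 measured members on each array (points, y axis), with their median and quartiles (black) beside those of all 19087 genes (grey). The members' median is 0.18 and 0.22 on arrays 1 and 2 and 0.08 and 0.03 on arrays 3 and 4, while the median of all genes stays near 0.

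The dye coefficient is estimated apart from the treatment ratio, because the dyes were swapped. It was taken as a stand-in for signal, which was not checked because spot intensities were not used here. At least 1 spot above background was found for 31 of 34 members, against 73.7% of all genes. Cxcl9, Oas3 and Mx1 were the members without such a spot. The dye effect passed for 28 of 34 members (limma, adjusted p under 0.05), against 72.7% of genes and 66.3% of all features. It was positive in 27 of them, against 65.4% of genes, and negative in Oas3. The largest dye coefficient was that of Igtp at 1.90 (SE 0.17, limma adjusted p 0.00139). That of Cxcl10 was 0.60 (SE 0.10, limma adjusted p 0.00587).

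Dim spots pulled several gene means toward 0. Over spots above background alone, the median of the 31 members was 0.20. The mean was above 0 for 26 of them, against 47.1% of the 14075 genes so measured, and 17 were above 0 on 4 of 4 arrays, against 7.01%. Rsad2 changed from 0.13 to 0.39, Oasl2 from 0.16 to 0.31, Ddx58 from 0.06 to 0.20 and Irgm1 from 0.18 to 0.27. Spots disagreed in sign for Ccl5, Ddx58, Irf1, Mx1, Oas2, Oas3 and Rsad2. In Ccl5 and Irf1 the spot below 0 was above background, and in the other 5 genes the spots below 0 were not.

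Other genes of the pathway were counted from lists that were likewise drawn up with earlier results of these data known. Of the 58 measured interferon-induced genes outside the members, 48 had a mean above 0, against 48.0% of all genes, with a median log2 ratio of 0.07. The ratio was above 0 on 4 of 4 arrays for 16 of them, against 8.0% of all genes. Gbp4, a guanylate-binding protein, stood at 0.68, 0.26, 0.02 and 0.46, with a mean of 0.35 (SE 0.12). Tgtp1, an immunity-related GTPase first found in T cells, stood at 0.49, 0.49, 0.16 and 0.11, with a mean of 0.32 (SE 0.09). Iigp1, a GTPase of the same family chosen after its values were seen, had the highest mean of all genes at 0.70, from 1.58, 0.74, -0.15 and 0.63. Array 1 was the highest and array 3 the lowest, below 0.

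The upstream genes stayed closer to 0. Of 15 measured interferon genes 6 had a spot above background, against 73.7% of all genes, and the median of the 15 was 0.03. Ifna1 and Ifnl3, with means of 0.07 (SE 0.05) and 0.06 (SE 0.05), were the named ones, and interferon alpha genes are near-identical copies whose probes may cross-read. Ifng, which encodes interferon gamma, and Ifnb1 had no spot above background. Of 16 receptor and JAK-STAT genes 11 had a mean above 0, against 48.0% of all genes, with a median of 0.02. Ifnar2, a chain of the type I receptor, had a mean of 0.11 (SE 0.05). It was the only one above 0 on 4 of 4 arrays, against 8.0% of all genes.

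Of 24 genes of nucleic acid sensing 14 had a mean above 0, against 48.0% of all genes, with a median of 0.02. Tlr4, the receptor for bacterial lipopolysaccharide, had a mean of 0.13 (SE 0.06). Sting1, which relays the detection of cytosolic DNA, had one of 0.11 (SE 0.05). Of the list, 5 genes were above 0 on 4 of 4 arrays, against 8.0% of all genes. Another 4 were below 0 on 4 of 4 arrays, against 6.76%. Those were Irf3 and Tlr9 at -0.08 and Mavs and Tbk1 at -0.05, chosen after their values were seen. Other chemokines and their receptors had a median of -0.005, with 14 of 32 above 0, against 48.0% of all genes. Ccl6 had a mean of 0.23 (SE 0.06) and Ccl12, a monocyte attractant related to Ccl2, one of 0.20 (SE 0.06), both above 0 on 4 of 4 arrays. Ccl4, a ligand that attracts T cells and monocytes and was chosen after its values were seen, had the largest difference of the list in either direction, at -0.33, -0.90, -0.45 and 0.12, with a mean of -0.39 (SE 0.17). Cxcr3, the receptor of CXCL10, stood at -0.17, -0.07, 0.09 and -0.03, and was chosen after its values were seen. NF-kappaB and inflammatory cytokine genes had a median of 0.01, with 15 of 24 above 0, against 48.0% of all genes. Nfkbia, the inhibitor that NF-kappaB itself induces, had a mean of -0.18 (SE 0.07) and was below 0 on 4 of 4 arrays. Il18, an inflammasome cytokine, had a mean of 0.07 (SE 0.05) and was above 0 on 4 of 4 arrays.

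**Figure D4:**
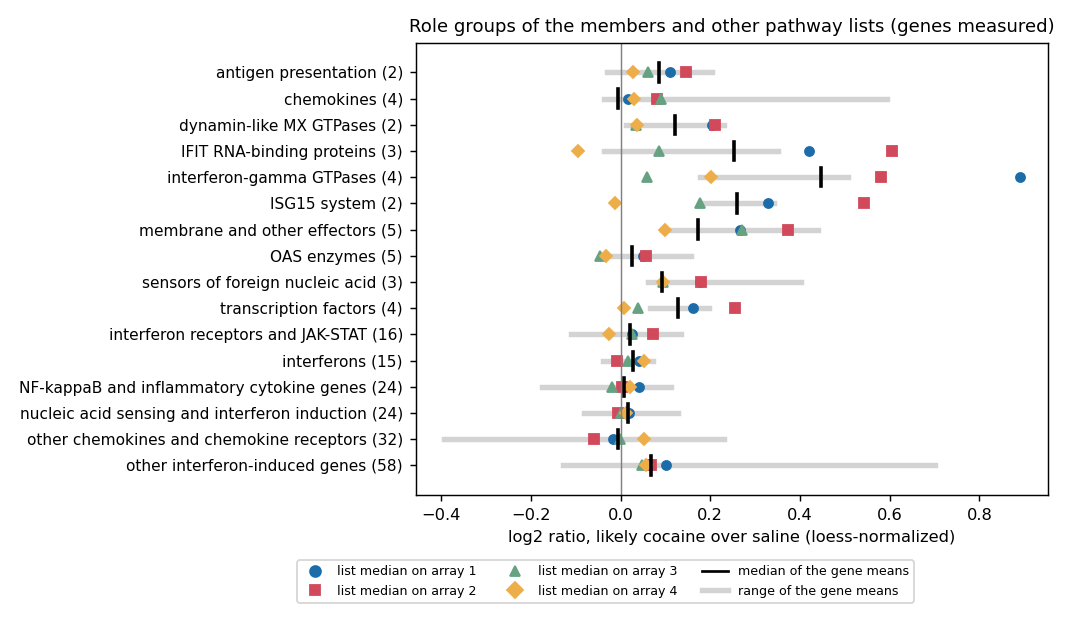
Median log2 ratio of each role group of the members and of 6 other pathway lists (black bar), with the list median on each array (symbols) and the range of the gene means (grey); the number of genes measured is in brackets. The interferon gamma GTPases have a median of 0.45, and 5 of the 6 other lists have medians between -0.005 and 0.03.

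Markers of the tissue and of cells that could bring interferon-induced transcripts were read on the same arrays. All 14 pallidal neuron markers had a spot above background, with a median log2 ratio of -0.01, 5 above 0 and 9 below. Meis2 had their largest mean in either direction (0.18, SE 0.13). Microglia markers were above background in 11 of 11 measured genes, with a median of -0.03 and 4 above 0. Tmem119, a microglial membrane protein, had a mean of -0.17 (SE 0.09). The microglia median was -0.09 and -0.05 on arrays 1 and 2, where the members were highest, and 0.04 and 0.08 on arrays 3 and 4.

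Of 13 T and NK cell markers 3 had a spot above background, among them Cd3e at -0.06 (SE 0.05), and the list median was -0.01. Of these 13 markers 5 had a mean above 0. Of 5 B cell markers 2 had a spot above background, and the list median was 0.03, with 3 above 0 and 2 below. Blnk had a mean of 0.13 (SE 0.05). Cd79a, chosen after its values were seen, was not above background and had a mean of -0.06. Monocyte and border macrophage markers had medians of 0.22, 0.11, -0.02 and 0.07 on arrays 1 to 4, with 7 of 9 above 0 in the mean. Plac8 had their largest mean at 0.52 (SE 0.07) and Ccr2 had no spot above background. Neutrophil markers were above background in 2 of 7 genes. S100a9, a calcium-binding protein abundant in neutrophils, stood at 0.81, 0.59, -0.02 and 0.22 on arrays 1 to 4. S100a8, its partner and chosen after its values were seen, was not above background and stood at 0.25, 0.02, -0.11 and 0.11. The part of these cells in the members' ratios was not tested.

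Erythrocyte markers were lower in all 4 measured genes, with a median of -0.23 and medians of -0.17, -0.63, -0.29 and 0.12 on arrays 1 to 4. Hba-a1, an alpha globin, had a mean of -0.31 (SE 0.11). Astrocyte markers had a median of -0.01, with 4 of 8 above 0. Sox9 stood at 0.15 (SE 0.06) and Aqp4, chosen after its values were seen, at -0.15 (SE 0.08). Endothelial and mural markers had a median of 0.03, with 10 of 14 above 0 and Cldn5 at 0.18 (SE 0.11). Meningeal and choroid plexus markers had a median of 0.07, with 7 of 10 above 0 and Ptgds at -0.29 (SE 0.05). Striatal projection neuron markers had a median of 0.04, with 3 of 6 above 0. Drd1 stood at 0.29 (SE 0.20) and Drd2, chosen after its values were seen, at -0.10 (SE 0.10). Dendritic cell markers had a median of -0.004, with 4 of 8 above 0 and Bst2, a member itself, as the largest. The part of these differences in tissue makeup in the members' ratios was not tested either.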

How the data were processed

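The authors deposited log2 ratios of 45220 spots on each array. Agilent Feature Extraction is the tool in the submitters' processing notes, with no version. Intensities, spot flags and background handling were not used here. On arrays 1 and 3, 90.8% and 92.8% of 5000 sampled values were the base 2 logarithm of a ratio of whole numbers (denominator up to 2000, relative tolerance 1e-09), against 0.38% and 0.48% after a random shift. On arrays 2 and 4, whose values carry fewer decimals, the check decided nothing, and log2 was assumed from their similar spread (SD 0.55 and 0.72, against 0.53 and 0.65). The deposited medians were 0.33, -0.25, 0.49 and -0.56 on arrays 1 to 4, so the columns were not centred.

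Spots at 0 on all 4 arrays (202) were removed. A loess curve (limma 3.58.1 in R 4.3.3, span 0.3) of each array's ratios against the dye bias, the mean over both orientations, was subtracted. Averaging the spots of each gene left 30452 features, among them 19087 genes with 1 symbol. Symbols came from the platform annotation. By gene identifier 33517 of 33653 spots matched a RefSeq table, and 0 symbols changed. Treatment and dye coefficients were fitted with lmFit and eBayes, and Benjamini-Hochberg adjustment ran over all features with a threshold of 0.05. The dye test used the deposited log2 values without loess. Above background means a mean dye bias over 0.0856, which is 3 SDs above the mode of dim spots. This stands in for intensities.

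The members and all lists were chosen with earlier results of these data known. Every member was named. Each pathway list gave up to 2 genes above background with the largest absolute mean among those of the same sign on 4 arrays, and each marker list gave the 1 with the largest absolute mean. The fit was tested on simulated data. Alternatives changed the normalization, dye term, loess span, spot summary, background filter and variance model, or left out an array.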

Additional observations from a re-analysis of the deposited data

How the results depend on the processing

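The log2 ratio of Cxcl10 stayed between 0.38 and 0.76 when single arrays were left out, with the lowest value without replicate 4. Such fits weight the remaining arrays unequally, as described above. Under the other alternatives tried the ratio of Cxcl10 was 0.59. The members' median ranged from 0.10 to 0.20 without single arrays. It was 0.16 with each array centred on its median and 0.20 over spots above background. The count of members above 0 on every array was 0 for the values as deposited and 6 after median centring of each array, and both keep the dye bias by construction. It was 14 with a loess span of 0.7, and 14 to 25 without single arrays, where 3 arrays decide. The share of all genes was not computed for these settings, and the 8.0% given above holds for 4 arrays in the main fit. The count of features passing the treatment test was 18 with each array centred on its median and 0 under the other alternatives run. The count of members passing the dye test ranged from 17 to 28 without single arrays, with 18 without replicate 1 and 17 without replicate 3. For these fits, too, the share of all genes was not computed. Each ratio compares the 2 mice of 1 array, so the fit is already paired by array. The labels give no replicate numbers to block on further. The missing intensities limit what can be said of dim spots.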
